A study of Mus musculus with 6 samples.

Results

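The Wnt and beta-catenin pathway was followed through 10 genes, taken as a list of named pathway genes by a rule that uses no measured value. They are Ctnnb1, Axin1, Axin2, Apc, Gsk3a, Gsk3b, Tcf7, Tcf7l1, Tcf7l2 and Sp5, and they are 10 of the 27706 protein-coding and lincRNA genes of the annotation. Acetylation of lysine 27 on histone H3 (H3K27ac) was measured in mouse embryonic stem cells (mESCs) by ChIP-seq, which sequences DNA bound to a histone mark. The series holds 2 replicates each of control cells given DMSO, cells given the CDK9 inhibitor NVP-2 at 100 nM, and cells given Actinomycin D (ActD, a compound that binds DNA and blocks transcription) at 1 µg/ml (800 nM in the sample labels), all for 120 min. It addressed whether the mark depends on ongoing transcription. Results below come from the control peaks alone, as 1 list of 22973 peaks that the authors made from both control replicates together, and NVP-2 and ActD peaks were not analysed here. Each peak is a chromosome, a start and an end in the mouse build mm10 (GRCm38). Heights, read counts and values per replicate are not part of the list, so the reads behind a peak cannot be read from it and no value below has a replicate error or a test.

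All 3 groups were cells of the E14Tg2A line with Rosa26-Cre and Oct4-IRES-Puro alleles, grown in N2B27 medium with 1000 units/ml of leukemia inhibitory factor, 1 µM of the MEK inhibitor PD0325901 and 3 µM of CT-99021. CT-99021 inhibits the kinases that Gsk3a and Gsk3b encode, and it was present in the controls too. Pathway activity was not measured here, and no group without the inhibitor was there for comparison. The labelled cell type was checked at promoters, taken as 1 kb on each side of every annotated transcription start site (TSS), where an overlap of 1 bp with a peak counted as marked. Pou5f1, Nanog and Sox2, which define the stem cell state, were all marked. None of 8 genes of other lineages was, namely Alb, Myod1, Neurod1, Gata1, Ins2, Hbb-bs, Tnnt2 and Cd3e.

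In Wnt signalling, beta-catenin is made continuously and, without a signal, is phosphorylated and degraded by a cytoplasmic destruction complex. Axin and APC are the scaffolds of that complex and GSK3 is one of its kinases. A Wnt ligand, or an inhibitor of GSK3, stops this degradation, and beta-catenin then reaches TCF/LEF proteins on DNA and turns on target genes. In mESCs this route relieves repression by TCF7L1 and helps to hold the naive state. H3K27ac is found at active promoters and enhancers.

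A peak marked the promoter of 9 of the 10 genes. The exception was Axin2. Among all genes 43.6% were marked by the same rule, and among the 21853 protein-coding genes 51.0% were. The 10 genes have 39 distinct annotated TSSs over 42 isoforms, of which 26 lay within 1 kb of a peak, and all 26 lay inside one. Of the 13 others, 5 belonged to Axin2 and 8 to marked genes, namely 3 each to Ctnnb1 and Tcf7l2 and 1 each to Axin1 and Gsk3b. None was close to the limit, since the nearest of them to a peak, in Axin1, was 3.468 kb away. Thus 4 of the 7 marked genes with several TSSs left at least 1 of them without a peak, where 40.1% of such marked coding genes did.

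**Figure D1:**
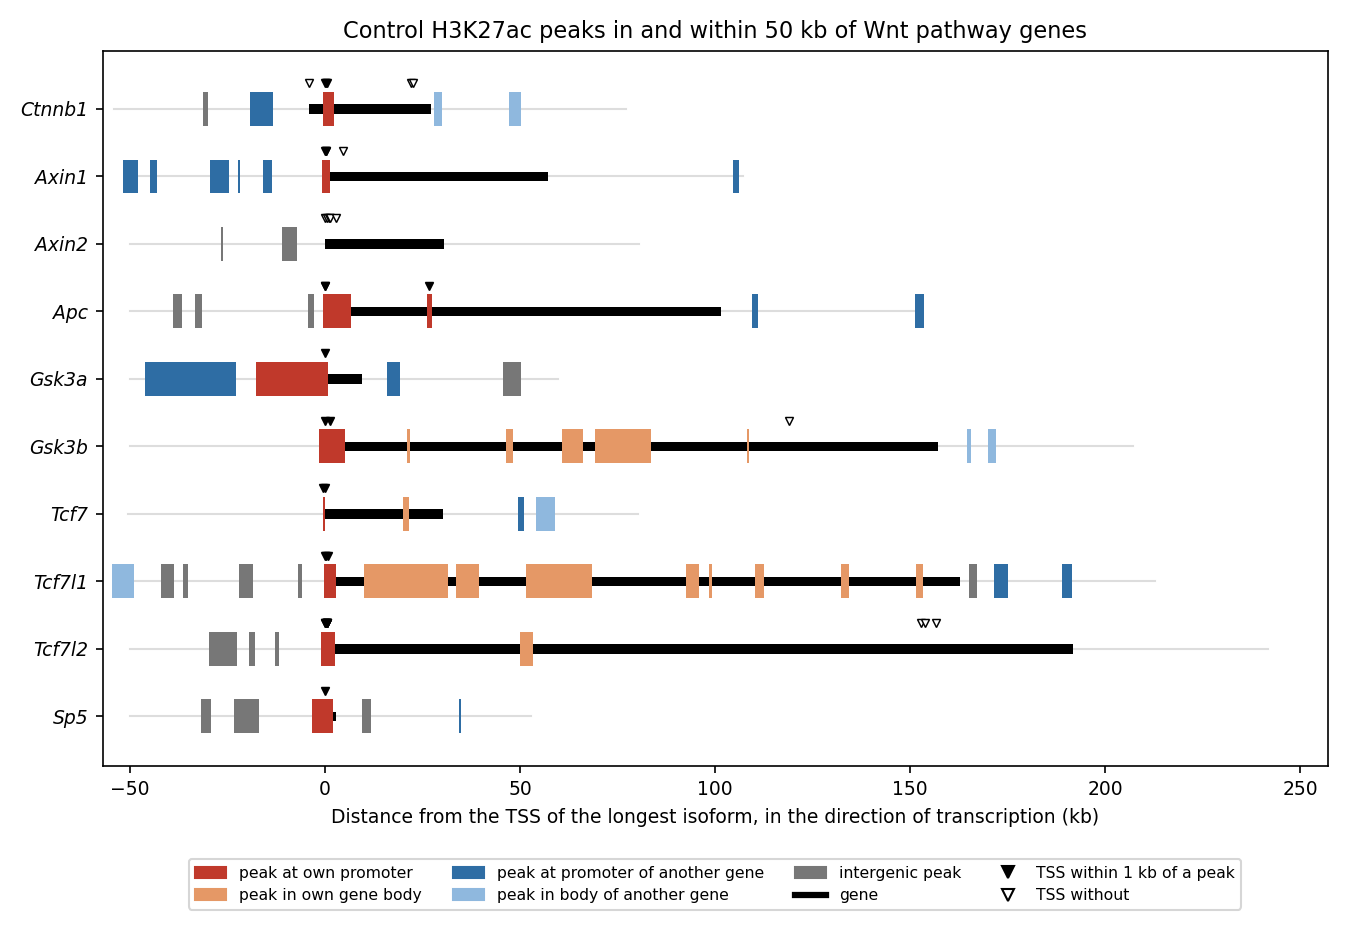
Control H3K27ac peaks in and within 50 kb of each Wnt pathway gene, against distance from the TSS of the longest isoform in kb, in the direction of transcription. Black bars are genes, colored boxes are peaks by class (drawn at least 0.6 kb wide), and filled or open triangles are TSSs with or without a peak within 1 kb. Tcf7l1 holds 8 peaks in its body, while the 5 TSSs of Axin2 have none near them.

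Ctnnb1 encodes beta-catenin, the effector of the pathway and also a part of cell adhesion junctions. It lies at chr9:120929216-120960507 on the plus strand, 31.3 kb long, and carried 1 promoter peak of 2947 bp at chr9:120932819-120935765. That peak ran from 0.581 kb upstream to 2.365 kb downstream of the TSS of the longest isoform, over exon 1 and into intron 1, and held 3 of the 6 TSSs. The other 3 belong to 1 isoform each. A start 4184 bp further upstream lay 3.603 kb from the nearest peak, and a pair of starts late in the gene lay 5.788 and 5.331 kb from one. There was no peak in the gene body. A peak of 2108 bp began 738 bp past the 3′ end, inside the neighbouring gene Ulk4, and 5 peaks in all fell in the gene or within 50 kb of it.

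Axin1 and Axin2 encode related scaffolds of the destruction complex and were not marked alike. Axin1, at chr17:26138688-26195811, had a promoter peak of 1994 bp that held 3 of its 4 TSSs, and the start at 4.659 kb lay 3.468 kb from it. No peak lay in the rest of its 57.1 kb. Its surroundings held 6 more peaks, every one at the promoter of another gene (Decr2, Nme4, Tmem8 with 2, Mrpl28 and Fam234a).

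Axin2 is a widely used readout of the pathway, since beta-catenin and TCF proteins induce it as a feedback inhibitor. It lies at chr11:108920349-108950783 on the plus strand, and none of its 5 TSSs nor any base of its 30.4 kb lay in a listed peak. The nearest peak, 3814 bp at chr11:108909323-108913136, ended 7.213 kb upstream of the first TSS, and the distances of the 5 starts from it ran from 7.213 to 10.045 kb. The only other peak within 50 kb was 89 bp wide, at 26.5 kb upstream. Both were intergenic. Genes without a promoter peak but with a peak within 50 kb made up 25.1% of coding genes, and of coding genes with exactly 5 distinct TSSs 73.5% were marked. Whether a promoter outside the list had no signal, missed a height threshold of the authors or failed their filter on distance from ATAC-seq summits cannot be told apart from positions alone.

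The upstream sequence of Axin2 is shown because its promoter stood apart from the other genes of the list, and that of Sp5, a target gene whose start lay inside a peak, for comparison. TCF/LEF proteins recognize the letters CTTTGAT or close forms of them. Both runs are 250 bases that end just before the RefSeq start in GRCm38.p6, 5′ to 3′ on the plus strand, at chr11:108920099-108920348 and chr2:70474673-70474922, with the core CTTTG on either strand in capitals.
Axin2: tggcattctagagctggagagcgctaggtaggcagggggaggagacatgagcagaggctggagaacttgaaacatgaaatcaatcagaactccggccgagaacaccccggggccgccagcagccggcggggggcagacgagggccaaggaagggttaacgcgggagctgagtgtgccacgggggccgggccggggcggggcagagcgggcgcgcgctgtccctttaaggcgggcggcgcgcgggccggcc
Sp5: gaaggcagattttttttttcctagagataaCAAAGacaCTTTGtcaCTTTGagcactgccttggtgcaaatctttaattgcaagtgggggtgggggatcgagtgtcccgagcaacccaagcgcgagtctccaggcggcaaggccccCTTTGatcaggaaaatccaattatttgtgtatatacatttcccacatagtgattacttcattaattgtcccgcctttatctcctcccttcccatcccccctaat
The core occurred 4 times in the Sp5 run and not at all in the Axin2 run. The entries of Ctnnb1 and Tcf7, whose starts lay inside peaks, also had none.

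Past the start, Axin2 did hold the full letters. CTTTGAT occurred at 81 and 886 bp downstream of its first TSS, once in an exon of 1 isoform and once outside annotated exons. The same search of 1 kb on each side of the TSS found 2 sites at Sp5, 101 bp upstream and 92 bp downstream, and 1 at Tcf7, 800 bp upstream. These sites are shown as 29 bases of GRCm38 with CTTTGAT in capitals, printed on the strand that reads CTTTGAT.
Axin2 at 81 bp: agccggctgcgCTTTGATaaggtcctggc
Axin2 at 886 bp: cggccggcgcgCTTTGATgtgcggggcgg
Sp5 at 101 bp upstream: ggcaaggccccCTTTGATcaggaaaatcc
Sp5 at 92 bp: gagccgctattCTTTGATgattgggtagc
Tcf7 at 800 bp upstream: gcccgcggtgcCTTTGATgttccgacccg
Both Sp5 sites lay in its promoter peak. The Axin2 sites lay 7291 and 8096 bp from the nearest peak, and the Tcf7 site lay 141 bp outside the Tcf7 promoter peak. A site within 1 kb of the TSS was no rarity, since 25.8% of all genes had one.

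Apc encodes the other large scaffold of the complex and is a tumor suppressor in the gut. It lies at chr18:34220924-34322552, and it was the only gene of the list with 2 separate promoter peaks, which 5.37% of marked coding genes had. The first, 7332 bp, held a pair of starts 60 bp apart and ended in intron 1, 6.737 kb past the TSS of the longest isoform. The second, 1321 bp, held the alternative start at 26.714 kb, within intron 1 of the longest isoform. All 3 TSSs were thus inside a peak, and no peak lay in the rest of the gene. Outside it were 3 intergenic peaks upstream and the promoter peaks of Srp19 and Reep5 downstream.

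Gsk3a and Gsk3b encode the 2 forms of the kinase that CT-99021 inhibits. Their peaks were spread in different ways around their starts. Gsk3a, at chr7:25228258-25237851 on the minus strand, is 9.59 kb long, and its promoter peak was the widest of the list at 18639 bp. Nearly all of that peak lay upstream, from 17.784 kb before the TSS to 0.854 kb after it, over the promoter of Erf, which encodes an ETS family repressor. A peak shared with another gene's promoter was the case for 30.0% of marked coding genes and here for Gsk3a alone. The next peak upstream, at the promoter of Cic, was 23350 bp wide. Because both are wide, peaks covered 45.6% of the bases in Gsk3a and 50 kb on each side, percentile 98.8 among coding genes. Of Gsk3a itself 8.91% was covered. Which of the genes in this stretch the width goes with was not tested.

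Gsk3b, at chr16:38089001-38246084 on the plus strand, is 157.1 kb long. Its promoter peak of 6623 bp ran from 1.624 kb upstream to 4.998 kb downstream and held 2 of the 3 TSSs. The third start, at 119.037 kb, lay 10.824 kb from the nearest peak. There were 5 more peaks inside the gene. A peak of 695 bp and one of 1913 bp lay in intron 1, one of 5395 bp in intron 2, one of 14408 bp from intron 2 into intron 3, and one of 117 bp in intron 7. Both wide ones lay 2997 bp apart, between 60.713 and 83.512 kb from the TSS. Peaks covered 17.5% of the gene, percentile 91.9 among coding genes of 50 kb or longer.

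The TCF factors bind DNA and recruit either beta-catenin or corepressors. Tcf7 (TCF1) acts mostly with beta-catenin in mESCs, while Tcf7l1 (TCF3) is mostly a repressor there. Tcf7, at chr11:52252371-52283014 on the minus strand, had the narrowest promoter peak of the list, 693 bp at chr11:52282535-52283227, percentile 4.93 among marked coding genes. It held both TSSs, which are 443 bp apart. A single body peak of 1487 bp lay about 20 kb downstream, from intron 2 to intron 3, in a stretch that the lincRNA Gm26551 also spans. The other peaks within 50 kb were at the promoter of Skp1a and in the body of Gm26551.

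Tcf7l1 held the most peaks. It lies at chr6:72626378-72789254 on the minus strand, 162.9 kb long, and a promoter peak of 3260 bp held all 3 of its TSSs. A further 8 peaks lay in the gene body, 7 in intron 3 and 1 in intron 4. In order from the TSS they were 21537, 5800, 16985, 3357, 792, 2086, 2046 and 1845 bp wide, so that all 3 of the widest came first. From 10.1 to 68.5 kb downstream of the TSS, those 3 covered 75.9% of 58.4 kb, at chr6:72720763-72779168. The first and the second were 2040 bp apart, just over the distance of 2 kb within which the authors merged peaks. Only 376 of all peaks, 1.64%, were as wide as the first or wider.

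Among the 4986 coding genes of 50 kb or longer, 8 or more body peaks were found in 0.943%, and Tcf7l1 stood at percentile 99.2. Peaks covered 35.2% of the gene, percentile 97.6. With another 5 intergenic peaks, the promoter peaks of Tgoln1 and of Elmod3 and Retsat, and 1 peak in Kcmf1, the gene and 50 kb on each side held 17 peaks over 76.3 kb. As many kb or more were covered around 83 of 21853 coding genes. That window is long, 262.9 kb, and as a share peaks covered 29.0% of it, percentile 94.2 among coding genes.

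Tcf7l2 (TCF4) is the longest gene of the list, 191.8 kb at chr19:55741820-55933654. Its promoter peak of 3657 bp held 8 of 11 TSSs, all at the 5′ end. The other 3 starts, 152.7 to 156.7 kb downstream, lay 99.3 to 103.3 kb from the nearest peak. There was 1 body peak, 3415 bp at chr19:55791817-55795231 in intron 3, about 50 kb from the start. The long remainder of the gene past that peak held none. Upstream lay 3 intergenic peaks, of 7005, 1564 and 1141 bp.

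Sp5 encodes a zinc finger factor that beta-catenin and TCF proteins induce directly. It is the shortest gene of the list, 2.81 kb at chr2:70474923-70477729 on the plus strand. A single promoter peak of 5420 bp at chr2:70471664-70477083 ran from 3.259 kb upstream to 2.160 kb downstream of the TSS and covered 77.0% of the gene. Around it lay 3 intergenic peaks, the widest 6453 bp at 16.9 to 23.3 kb upstream, and a peak of 542 bp at the promoter of Erich2. Peaks covered 16.7% of Sp5 and its surroundings, against 2.99% for Axin2, which the same factors induce.

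**Figure D2:**
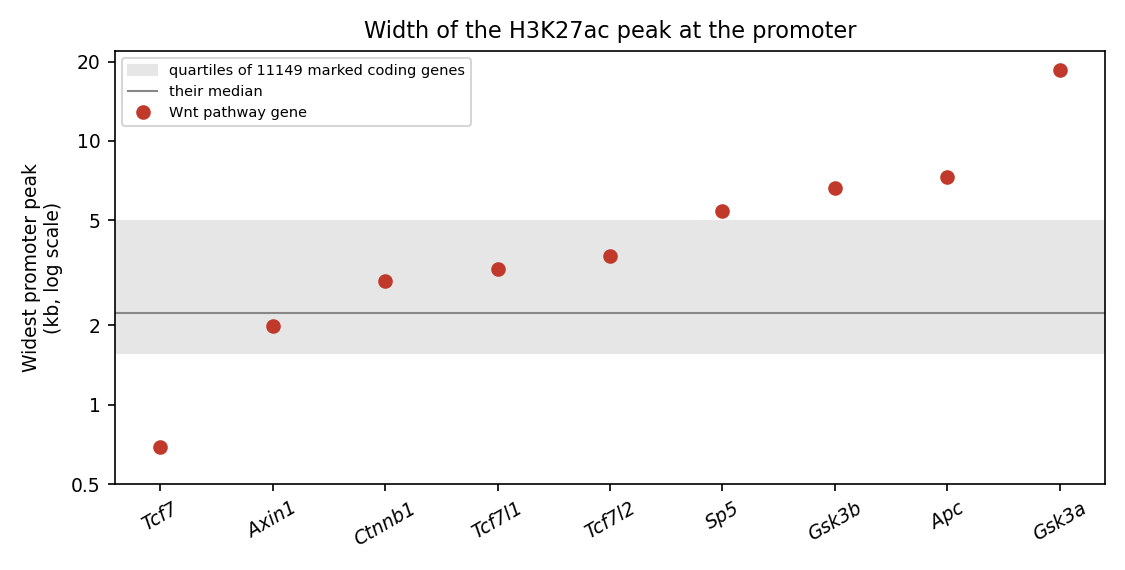
Width in kb, on a log scale, of the widest promoter peak of each of the 9 marked Wnt pathway genes (points). The grey band is the range from the lower to the upper quartile of 11149 marked protein-coding genes, and the line their median. Tcf7 at 0.693 kb lies below the band, and Sp5, Gsk3b, Apc and Gsk3a lie above it.

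Set side by side, the widest promoter peaks of the 9 marked genes ran from 693 bp for Tcf7 to 18639 bp for Gsk3a, with a median of 3657 bp. The median over 11149 marked coding genes was 2225 bp, with quartiles of 1570 and 4990 bp. Only Tcf7 and Axin1 were below that median. No order between neighbours can be given an error, since 1 list from both replicates holds 1 width per peak.

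Peaks in the gene body, outside the promoters of the gene's own isoforms, were found in 4 of the 10 genes and numbered 15. Tcf7l1 and Gsk3b had 13 of them. In all, 19.3% of coding genes held such a peak. Since long genes have more room for one, the 5 genes of 50 kb or longer (Axin1, Tcf7l1, Tcf7l2, Apc and Gsk3b) were also read against coding genes of that length. A body peak was present in 3 of these 5, and in 43.6% of all 4986 genes of that length. Their counts were 8 for Tcf7l1, 5 for Gsk3b, 1 for Tcf7l2 and 0 for Axin1 and Apc, beside a median of 0 and an upper quartile of 1.

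All 10 genes had at least 1 peak in the gene or within 50 kb, as did 76.1% of coding genes. The windows together held 64 peaks, of which 10 were at their own promoters, 15 in their own bodies, 15 at promoters of other genes, 6 in bodies of other genes and 18 intergenic. The number ran from 2 for Axin2 to 17 for Tcf7l1 with a median of 5, against a median of 2 and quartiles of 1 and 4 for coding genes. Axin2 alone did not exceed that median. Of the 251023 bp covered in all windows, 30.4% lay in that of Tcf7l1. Windows were longer for these genes than for most, since their median length was 44.2 kb against 17.4 kb. As a share of the window, the covered part had a median of 10.6%, against 3.88%, and again Axin2 alone was below the median of coding genes.

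**Figure D3:**
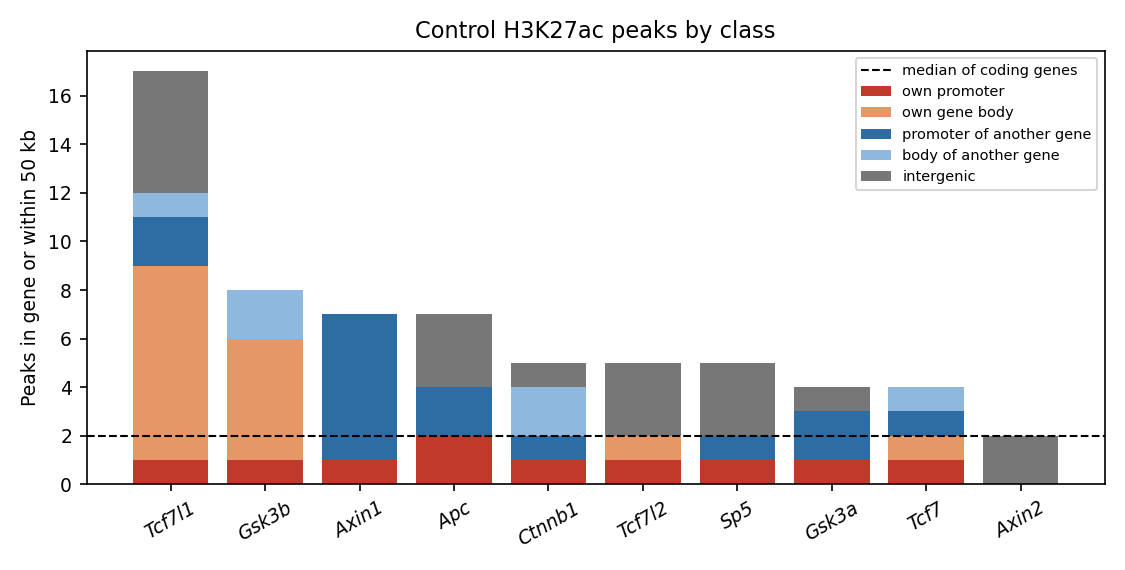
Number of control H3K27ac peaks in each Wnt pathway gene or within 50 kb of it, stacked by class, with the median of 21853 protein-coding genes as a dashed line. Tcf7l1 with 17 peaks stands highest, and Axin2 with 2 intergenic peaks lies on the median.

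To place the 10 genes in the whole pathway, 99 other genes were grouped by their step. In all, 55 of them, 55.6%, were marked, a share near the 51.0% of all coding genes, but the groups ran from 10.5 to 94.1%. Upstream steps were mostly unmarked. Of 19 Wnt ligands 2 were marked, Wnt5b with a peak of 5190 bp and Wnt11 with one of 492 bp, so that Wnt5b alone was marked among peaks of 1 kb or wider. A peak in the gene or within 50 kb was found for 13 of the 19, where 76.1% of coding genes had one. Among 6 genes for Wnt secretion and R-spondin agonists, Wls alone was marked. It encodes the carrier that brings Wnt proteins to the cell surface.

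Receptors, with 9 of 15, were closer to the background. The widest promoter peaks among them were at Fzd5 (13084 bp), Fzd7 (7992 bp), Fzd10 (5317 bp, shared with the promoter of 5930412G12Rik) and the coreceptor gene Lrp5 (5026 bp). For genes of receptor turnover and of secreted or cell surface antagonists, which act on receptors, coreceptors or ligands, 8 of 18 were marked, and 5 of 18 among peaks of 1 kb or wider. Notum, which encodes an enzyme that inactivates Wnt ligands, had the widest peak there at 16631 bp, which also covered the promoter of Aspscr1, followed by Sfrp1 (3078 bp), Znrf3 (1916 bp) and Sfrp2 (1354 bp).

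Steps inside the cell were nearly all marked. Of 17 cytoplasmic transducers and partners of the destruction complex (the Dishevelled, casein kinase 1 and tankyrase genes among them) 16 were, all but Nkd2. Of 12 nuclear partners of TCF and beta-catenin 11 were, all but the corepressor gene Tle2, whose 8 TSSs had no peak. These shares resemble the 9 of 10 for the core genes.

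Of 12 further genes known as targets of the pathway, 8 were marked. The exceptions were T (brachyury), Cdx2, Mixl1 and Sp8. Esrrb and Nr5a2 had no peak within 1 kb of the TSS of their longest isoform, and by that TSS alone 6 were marked. The median width of the 8 marked ones was 28219 bp, beside 2225 bp for marked coding genes. Several of them are also known as naive pluripotency factors. The promoter peaks of the stem cell genes Pou5f1 (34042 bp), Nanog (36014 bp) and Sox2 (19693 bp) were of like width. Whether the width goes with being a target was not tested. The widths of these 8, looked up after the count was known, were 71785 bp at Tfcp2l1, 63012 bp at Esrrb, 50763 bp at Klf2 and 34941 bp at Tbx3, then 21497 bp at Cdx1, 10901 bp at Myc, 10536 bp at Nr5a2 and 5995 bp at Ccnd1. The peaks of Klf2, Tbx3 and Cdx1 also covered promoters of Gm10282, Tbx3os2 and Pdgfrb. Sp5, at 5420 bp, was narrower than any of these. The targets in the list were picked from general knowledge. Target genes without a promoter peak, Axin2 included, were found beside others with wide ones.

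**Figure D4:**
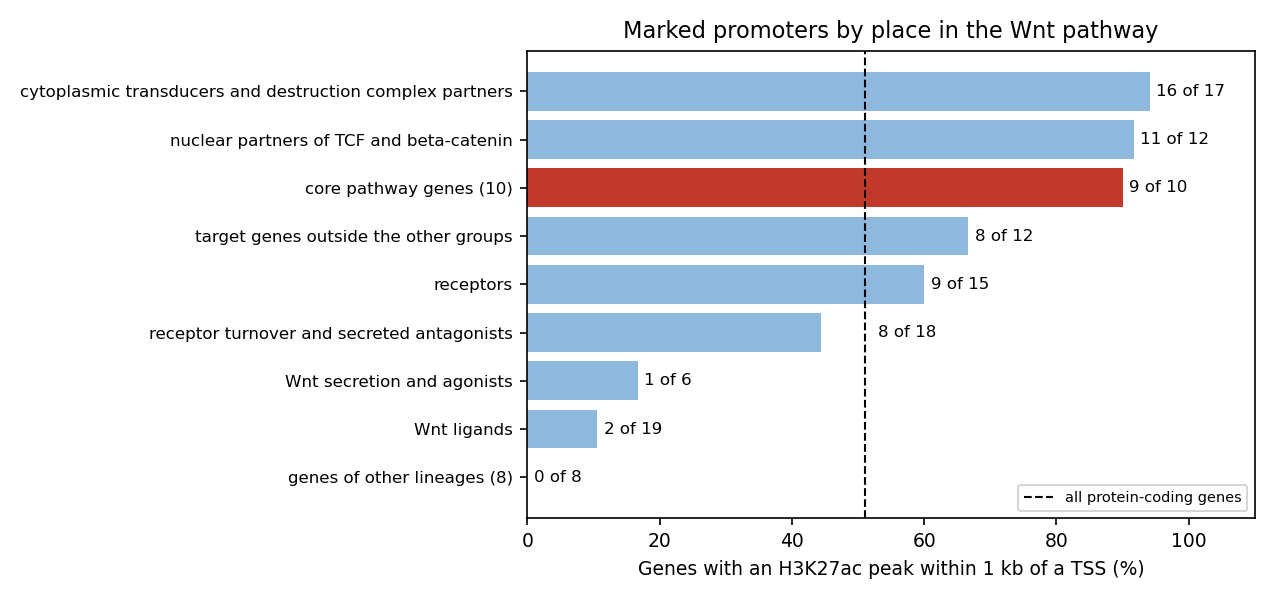
Share of genes with a control H3K27ac peak within 1 kb of a TSS, in percent, by place in the Wnt pathway, with the number marked of the number in each group. The dashed line is the 51.0% of protein-coding genes, and the groups run from 2 of 19 ligands to 16 of 17 cytoplasmic transducers.

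The letters CTTTGAT were then counted in the promoter table and in the peaks. RefSeq entries were matched by symbol for 8 of the 10 genes, with 11 entries, and sequence results are for these 8. In the window from 250 bases before to 50 after the start, Sp5 alone held CTTTGAT on either strand, and 4.29% of all 27025 genes with an entry did. The variant CTTTGAA was found in Gsk3a alone and in 5.93% of genes. The 5-letter core, which is part of both, was found at least once in 5 of the 8 genes and in 57.4% of all 27025 genes with an entry. Sp5 held it 5 times in this window and no other entry of these genes more than 1 time.

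In the 22 peaks at the promoters or in the bodies of these 8 genes, CTTTGAT occurred 15 times in 123.1 kb, which is 0.122 sites per kb. Over all 22973 peaks the density was 0.159 per kb. The share of peaks with a site was 8 of 22, against 35.1% of all peaks. Density was 0.194 per kb in promoter peaks and 0.0855 per kb in body peaks, and the 8 body peaks of Tcf7l1 held 4 sites. The Sp5 promoter peak held 3 sites, 0.554 per kb, the third at 2477 bp upstream. The upstream peak of Axin2 held no site. These are matches of letters and not measurements of binding.

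Some sites shared more than the searched letters. The 3 below, from the wide Gsk3a promoter peak and from the widest body peak of Tcf7l1, were followed by CCCAGCA and lay in repeats that the genome file masks, while the site in the Ctnnb1 promoter peak and the third Sp5 site did not. CTTTGAT is in capitals in each 29-base run of GRCm38, on the strand that reads it.
Gsk3a at 3074 bp upstream: gctgtgcatgcCTTTGATcccagcaggca
Gsk3a at 15505 bp upstream: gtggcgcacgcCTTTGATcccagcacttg
Tcf7l1 at 20914 bp downstream: gtggtgcaagcCTTTGATcccagcactcc
Ctnnb1 at 1246 bp downstream: ggcagctttgcCTTTGATaaagtctgcct
Sp5 at 2477 bp upstream: taaatattgtgCTTTGATctccctgcact
Of the 14283 sites in all peaks 19.4% lay in masked repeats and 4.04% were followed by those letters, against 3 of 15 for each in these genes. The letters CCCAGCA were chosen after the sequences were seen.

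In base composition Axin2 lay within the range of the marked genes with sequence results, which leave out Axin1 and Apc. Whether composition bears on the missing promoter peak of Axin2 was not tested. Over 1 kb on each side of the TSS, GC content had a median of 61.4% for the 8 genes and 49.8% for all genes, and the ratio of observed to expected CpG dinucleotides had medians of 0.768 and 0.372. CpG-rich promoters are often marked in any cell type. Axin2 had 61.7% GC and a CpG ratio of 0.831, percentile 95.01 of all genes, lower than that of Ctnnb1 (0.892) and higher than those of the other 6. Of the 1329 coding genes with a ratio at least that of Axin2, 91.3% were marked, a comparison added after the values were seen. The Sp5 promoter had the lowest ratio of the 8, 0.646 at percentile 77.2, with a peak wider than the median of marked coding genes.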

How the data were processed

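H3K27ac was measured by ChIP-seq in 2 replicates each of control, NVP-2 and ActD mESCs, grouped by their labels. The deposited positions used here are control peaks that the authors called on both control replicates together. Per their methods, reads were trimmed (Cutadapt), aligned to mouse plus the human spike-in (bwa meme), cleared of duplicates (Picard 2.9.1) and of low mapping quality (samtools 1.4). Peak calling was by LanceOtron. Peaks within 2 kb of each other were merged, and low peaks and those far from ATAC-seq summits were dropped. The study states library totals, deeper for 1 control replicate than for the other, which were not used here. Merging widens peaks where signal is dense, so widths and counts depend on it.

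Peaks were compared with GENCODE M21 transcripts on GRCm38, an earlier release than the study used, in Python 3.11.15 with numpy 2.4.6. Body peaks touched the gene outside all its promoters. Counting was tested on 2981 simulated peaks. No test was run, since 1 pooled condition has no replicate error.

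The rule for the 10 genes uses no measured value, but these genes, the pathway lists and the rules were chosen with earlier results of these data known. The text names all 10 genes, genes at their promoter peaks, and in each list the exceptions where 5 or fewer were marked or unmarked, otherwise the 4 with the widest promoter peaks. Other neighbours and the marked target genes were named after their values were seen. Other windows, overlaps, minimum widths, isoform choices, distances and motifs were tried.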

Additional observations from a re-analysis of the deposited data

How the results depend on the processing

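No paired analysis was possible because the deposited list pools both control replicates into 1 set of positions, and for the same reason no replicate could be left out. Of 37 recomputed counts and medians, 33 were counts within 1.5 times of the reported one or medians of the same value. The marked genes numbered 9 under each alternative but 1, and 8 among peaks of 1 kb or wider, since the Tcf7 peak is narrower, which moved the median promoter peak width to 4538.5 bp. Axin2 was unmarked under all 6, which was fixed in advance by its distance of 7.213 kb from the nearest peak. Genes with a TCF motif numbered 5 for CTTTG and 3 for CTTTGAT within 1 kb of the TSS, against 1. Median GC was 66.2% from 250 bases before to 50 after the start. Of 70 peak counts for single genes 8 fell and 3 rose by over 1.5 times, all under other distances or without peaks under 1 kb (the body peaks of Gsk3b then numbered 3). Of 42 counts for pathway groups 3 moved by over 1.5 times. Marked Wnt ligands fell to 1 among peaks of 1 kb or wider and with an overlap of 500 bp, and marked receptor turnover and antagonist genes fell to 5 among peaks of 1 kb or wider. The share of all genes marked ran from 39.0 to 44.6%. The strength of the mark cannot be read from positions.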
